A study of Mus musculus with 8 samples.

Results

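Glycogen is made and broken down by a small set of enzymes, and 9 of their genes were followed here in Min6, a mouse pancreatic β-cell line of tumour origin that makes insulin. The genes were taken by symbol from a deposited table of 55536 genes: the protein phosphatase 1 targeting subunits Ppp1r3b, Ppp1r3c, Ppp1r3d and Ppp1r3e, the glycogen synthase gene Gys1, the branching enzyme gene Gbe1, and the phosphorylase genes Pygb, Pygl and Pygm. The set was proposed because Ppp1r3c was among the most lowered genes under Klf4, so the difference between the plasmids is given for all 9 genes as a description, without p-values. The control group was transfected with pcDNA 3 Empty Vector and the Klf4 group with pGloMyc-Klf4, which expresses a zinc-finger transcription factor, for 48 h with a Lipofectamine reagent. All cells were of genotype WT and of 1 line, and each group had 4 biological replicates, of which replicates 1 and 2 were labelled batch 1 and replicates 3 and 4 batch 2. Since the vectors carry different names, effects of Klf4 and of the vector backbone cannot be told apart. The extraction text of the labels mentions islets, whereas every sample is labelled Min6.

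Glycogen synthase lengthens glucose chains and branching enzyme adds their branch points, while glycogen phosphorylase releases glucose 1-phosphate from the chain ends. The targeting subunits bind both glycogen and protein phosphatase 1, and so bring the phosphatase to glycogen synthase, which it activates, and to phosphorylase, which it inactivates. Islet β cells hold little glycogen under usual conditions and are known to accumulate it in prolonged high glucose.

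Libraries held 45417853 to 52731176 counts. Klf4 itself had 1743 to 2060 counts in the control libraries and 205171 to 308667 in the Klf4 libraries, which matches the labels, with plasmid and endogenous transcripts counted together. All 8 genes of the β-cell marker list had counts, with a summed level of 25100 to 31900 TMM-scaled CPM, the counts of a gene relative to its library, in control and 23400 to 32100 CPM in Klf4 libraries, and 5 of the 8 were lower at an adjusted p under 0.05 in edgeR, where 15.5% of all tested genes were. Of the other marker lists, those of fibroblasts and skeletal muscle moved with the plasmid. The 6 fibroblast genes, of which Lum was at 0 in all libraries, summed to 2.61 to 3.84 CPM in control and 21 to 27.4 CPM in Klf4 libraries. The 6 muscle genes, all with counts, summed to 3.94 to 4.72 CPM and 11.7 to 15.6 CPM, and the part of either list in the results below was not tested. In bulk RNA, fewer cells with a transcript and less of it per cell cannot be told apart.

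Of the 9 genes, 8 passed the filter on low counts, and Ppp1r3b did not. In edgeR, with p-values adjusted over all 18266 genes tested, 5 of the 8 passed the threshold of 0.05, where 36.6% of all tested genes did. Higher in Klf4 libraries were Gbe1, Pygb and Pygl (21.1% of all genes were called higher), and lower were Ppp1r3c and Pygm (15.5% of all genes). The median log2 fold change of the 8 genes was -0.08, against -0.01 over all tested genes. The 4 Klf4 libraries lay wholly above or below the 4 control libraries for 3 of the 9 genes, namely Ppp1r3c, Gbe1 and Pygb, which was so for 26.1% of tested genes. Nothing is read from these counts, since the same contrast proposed the set.

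Promoter sequences of the 4 genes with the largest differences, 2 lower and 2 higher, are shown so that they can be set beside the direction of each difference. Klf4 belongs to a family whose zinc fingers bind CACCC boxes and related GC-rich letters. Each window of 300 bases comes from RefSeq (build GRCm38.p6), runs 5′ to 3′ on the strand of the gene across its annotated start, and has every CACCC, or GGGTG where it lies on the other strand, in capitals. The windows are chr19:36736555-36736854 (minus) for Ppp1r3c, chr19:6384158-6384457 (plus) for Pygm, chr16:70313699-70313998 (plus) for Gbe1 and chr12:70227634-70227933 (minus) for Pygl. The gene model used for lengths, GENCODE M21, starts Pygl at 70231488, outside its window.
Ppp1r3c: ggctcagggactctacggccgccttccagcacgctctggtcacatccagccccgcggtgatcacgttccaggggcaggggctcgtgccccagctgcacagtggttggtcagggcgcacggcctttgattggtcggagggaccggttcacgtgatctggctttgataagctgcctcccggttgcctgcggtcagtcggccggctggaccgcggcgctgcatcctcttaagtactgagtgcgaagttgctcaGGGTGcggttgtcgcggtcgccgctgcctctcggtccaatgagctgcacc
Pygm: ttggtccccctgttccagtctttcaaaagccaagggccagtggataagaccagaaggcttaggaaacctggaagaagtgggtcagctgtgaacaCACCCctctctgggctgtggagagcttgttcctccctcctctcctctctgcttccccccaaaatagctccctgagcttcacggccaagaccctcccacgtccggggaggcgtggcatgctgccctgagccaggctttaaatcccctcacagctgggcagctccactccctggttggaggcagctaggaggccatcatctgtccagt
Gbe1: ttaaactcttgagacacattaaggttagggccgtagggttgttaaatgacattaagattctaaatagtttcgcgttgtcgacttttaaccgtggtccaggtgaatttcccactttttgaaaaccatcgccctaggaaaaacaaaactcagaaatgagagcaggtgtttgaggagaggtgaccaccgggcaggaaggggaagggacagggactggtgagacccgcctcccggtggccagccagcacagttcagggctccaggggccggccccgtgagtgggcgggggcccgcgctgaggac
Pygl: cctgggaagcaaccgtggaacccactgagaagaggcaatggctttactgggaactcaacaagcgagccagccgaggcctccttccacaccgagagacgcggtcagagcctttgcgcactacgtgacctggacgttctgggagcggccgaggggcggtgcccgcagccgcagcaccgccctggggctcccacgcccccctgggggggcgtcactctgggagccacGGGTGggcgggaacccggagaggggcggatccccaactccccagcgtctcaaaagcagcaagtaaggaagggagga
The letters CACCC occurred on either strand in 57.5% of the 32851 promoter windows of this length. Of the 7 genes of the set with a window, Ppp1r3c, Pygm and Pygl had 1 match each, Gys1 and Ppp1r3d had 2, and Gbe1 and Pygb had 0. The match of Ppp1r3c lay at its RefSeq start site. Among the called genes, the lower Ppp1r3c and Pygm and the higher Pygl had a match, whereas Gbe1 and Pygb, also higher, had none. A relation between matches and direction was not tested. The looser pattern CCNCNCCC, which can overlap CACCC, was present in 49.5% of all windows and in all 7 windows of the set. These matches describe letters, and no binding was measured.

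Ppp1r3c encodes the targeting subunit also called PTG, which binds synthase and phosphorylase as well as the phosphatase. It is a gene of 2 exons on chromosome 19, 36731731 to 36736653, minus strand, in GRCm38, and overlaps no other annotated gene. Its level was 3.57, 4.03, 2.78 and 3.07 CPM in control replicates 1 to 4 and 2.21, 2.56, 1.96 and 2.07 CPM in Klf4 replicates 1 to 4. All Klf4 libraries were lower than all control libraries, and batch 2 was the lower batch in both groups. The mean went from 3.36 ± 0.551 to 2.2 ± 0.263 CPM (SD, n = 4), which is 0.654 times the control level. The log2 fold change was -0.61 (SE 0.12), with -0.68 in batch 1 and -0.54 in batch 2. Control libraries held 137 to 196 reads of the gene and Klf4 libraries 103 to 116. The genes called lower whose average log2 CPM reached 1 and whose groups were apart within both batches numbered 2283, and Ppp1r3c held place 5 when these were ranked from the lowest log2 fold change. Among all 18266 tested genes, without these conditions, it held place 242. Within the ranking of the 2283 genes, the next lower was Rad52, a recombination gene, at -0.67. The next less lowered there was the predicted protein-coding gene Gm3055 at -0.60.

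Ppp1r3d and Ppp1r3e differed less, and Ppp1r3b was counted too sparsely to be compared with them. Ppp1r3d, a gene of 1 exon on chromosome 2, had 16.5, 16.6, 21.2 and 19.4 CPM in control and 15, 17.1, 16.6 and 19.3 CPM in Klf4 libraries. The groups overlapped, and its log2 fold change of -0.11 (SE 0.06) did not pass the threshold. Ppp1r3e had 19.9, 20.2, 22.4 and 23.6 CPM in control and 20.2, 20.1, 19 and 19.5 CPM in Klf4 libraries. Its groups overlapped in batch 1 and were apart in batch 2, with log2 fold changes of 0.01 and -0.25 in the respective batches and -0.12 (SE 0.06) over both. Ppp1r3b, the main targeting subunit of liver, was near the limit of counting, with 5 to 19 reads in a control library and 3 to 10 in a Klf4 library. Its summed counts were 44 (95% exact Poisson interval 32 to 59.1) and 29 (19.4 to 41.6), intervals that overlap and cover counting error only. The mean went from 0.228 ± 0.121 to 0.145 ± 0.061 CPM (SD, n = 4), a ratio of 0.635, close in size to that of Ppp1r3c but with overlapping groups. With no filter on low counts its log2 fold change was -0.63 (SE 0.51). No difference in Ppp1r3b was detectable at this depth.

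**Figure D1:**
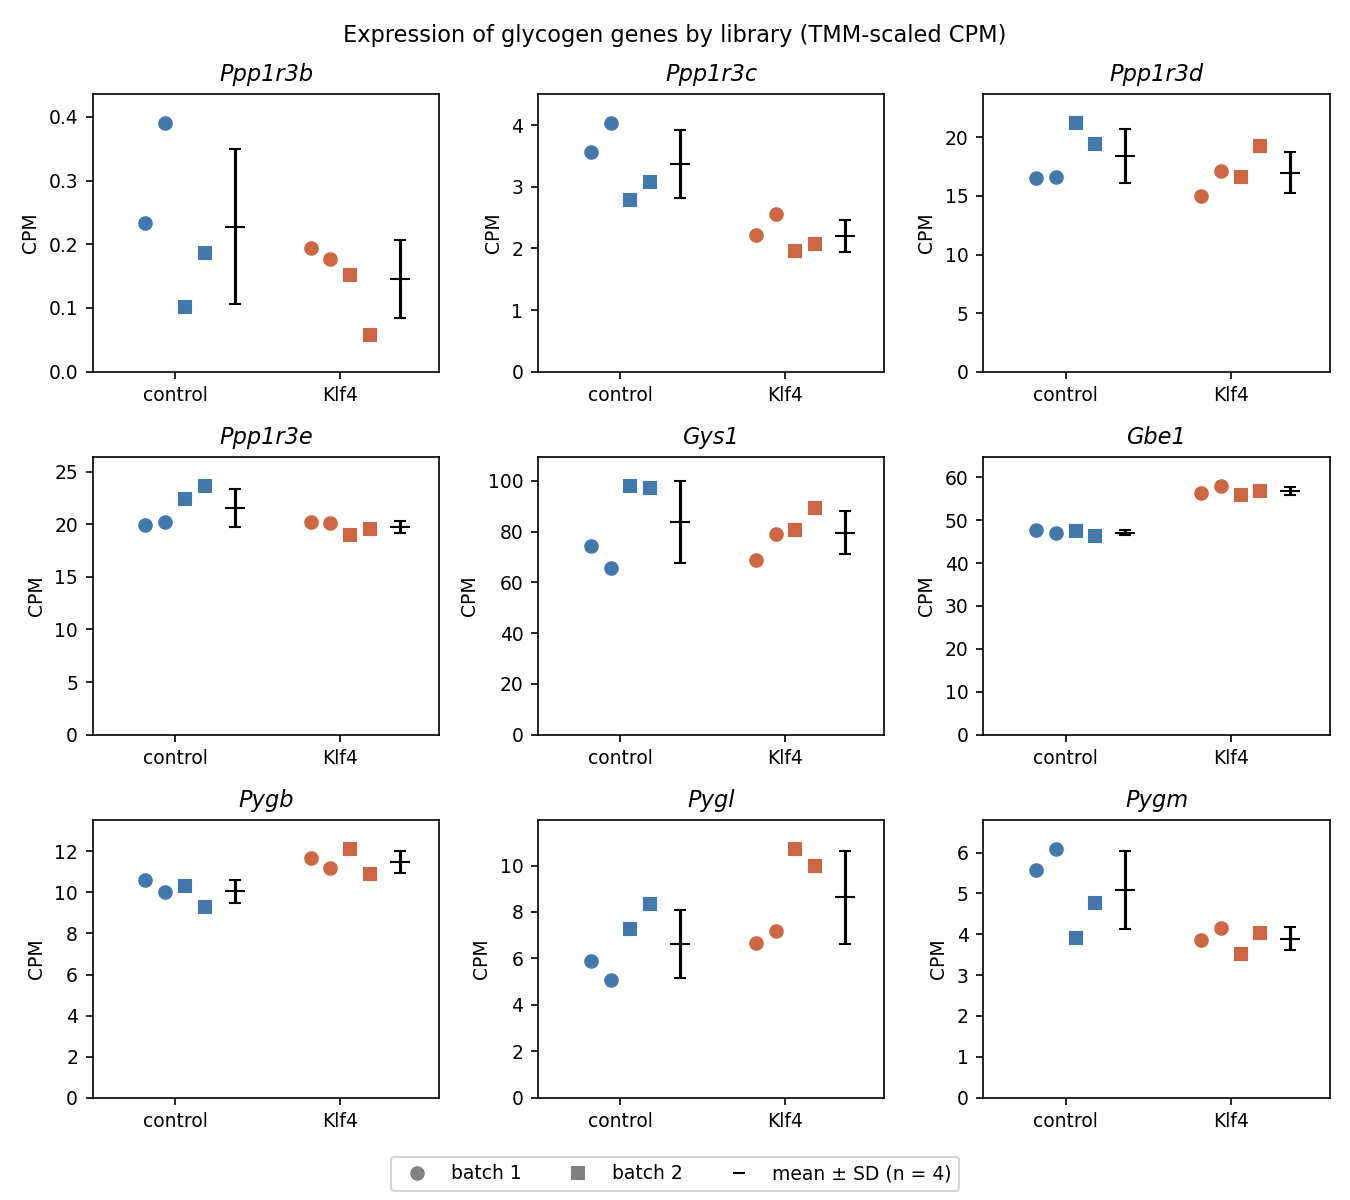
TMM-scaled CPM of the 9 glycogen genes in each library, with circles for batch 1, squares for batch 2 and bars for the mean ± SD of the 4 libraries of a group. The control and Klf4 points are apart for Ppp1r3c (lower), Gbe1 and Pygb (higher). Within the control group the batches overlap only for Gbe1 and Pygb.

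Of the 2 genes for building the polymer, Gbe1 was higher and Gys1 was not. Gbe1 (chromosome 16, 70313949 to 70569716, plus strand) had 47.6, 46.9, 47.4 and 46.4 CPM in control and 56.4, 57.9, 55.9 and 56.9 CPM in Klf4 libraries. Both groups were tight, and no libraries overlapped. Its mean of 47.1 ± 0.548 CPM in control and 56.8 ± 0.86 CPM in Klf4 libraries (SD, n = 4) gave a ratio of 1.21 and a log2 fold change of 0.27 (SE 0.03). The values were 0.27 and 0.26 within batches 1 and 2. Gys1, the synthase of muscle and most other tissues, had 74.2, 65.8, 97.8 and 97.3 CPM in control and 68.9, 78.9, 80.7 and 89.4 CPM in Klf4 libraries. These values overlapped between groups, and the control libraries of batch 2 were the highest. The log2 fold change of Gys1 was -0.06 (SE 0.05) over both batches, 0.08 in batch 1 and -0.20 in batch 2. An exon of Gys1 overlaps Ruvbl2 on the other strand, and without a stated strand setting reads of the overlap cannot be assigned.

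The phosphorylase genes went in different directions. Pygl, the liver form, had 5.88, 5.05, 7.28 and 8.35 CPM in control and 6.66, 7.2, 10.7 and 10 CPM in Klf4 libraries. It was higher under Klf4 within each batch, while the batch 1 Klf4 libraries overlapped the batch 2 controls. Its log2 fold change was 0.38 (SE 0.08), 0.34 and 0.41 within batches, and without a batch term it did not pass the threshold. Pygb, the brain form, had 10.6, 10, 10.3 and 9.3 CPM in control and 11.7, 11.2, 12.1 and 10.9 CPM in Klf4 libraries. The groups were apart by a narrow margin, and the log2 fold change was 0.19 (SE 0.07). The call for Pygb was lost with DESeq2 (0.19), without a batch term (0.19), with no filter on low counts (0.18), and when control replicate 2 (0.17), control replicate 4 (0.15), Klf4 replicate 1 (0.18) or Klf4 replicate 3 (0.14) was left out. Pygm, the muscle form, had 5.57, 6.08, 3.92 and 4.76 CPM in control and 3.85, 4.15, 3.52 and 4.04 CPM in Klf4 libraries. The groups were apart in batch 1 and overlapped in batch 2. The log2 fold change of Pygm was -0.37 (SE 0.11), -0.54 in batch 1 and -0.20 in batch 2, and without a batch term it did not pass the threshold.

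**Figure D2:**
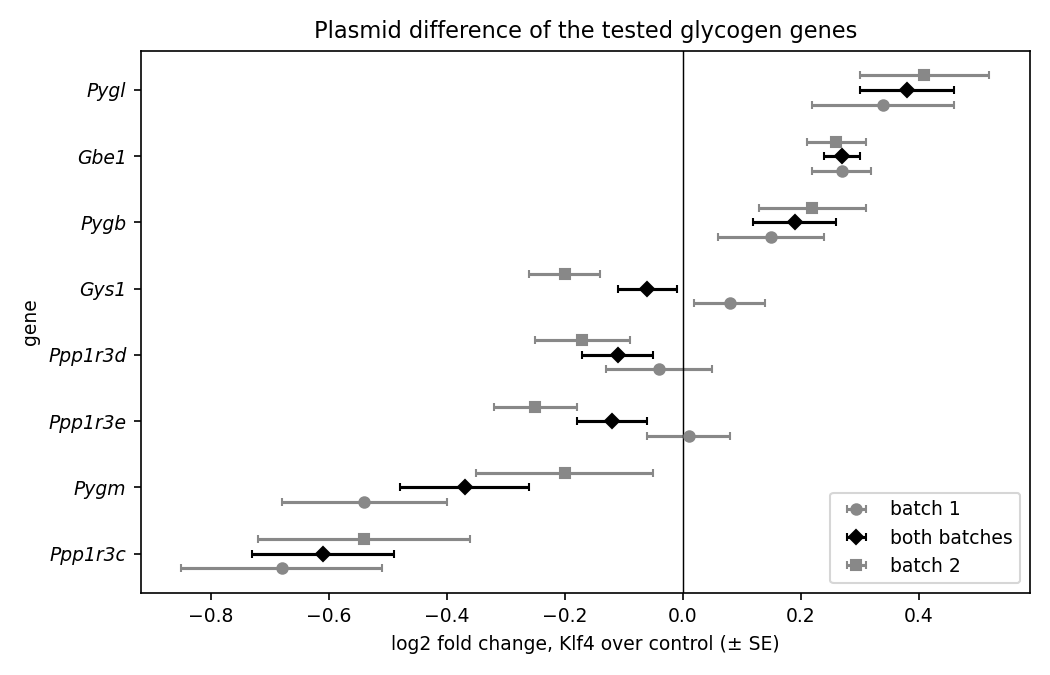
Log2 fold change of Klf4 over control libraries for the 8 tested glycogen genes, over both batches and within each batch, with bars for the SE. Ppp1r3c and Pygm lie below 0 and Gbe1, Pygb and Pygl above 0 in both batches, whereas Gys1 and Ppp1r3e lie on either side of 0 in the 2 batches.

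Per length, the phosphorylases together were at 4.63 ± 0.158 CPM per kb of exon in control and 4.85 ± 0.26 in Klf4 libraries (SD, n = 4). Pygb made up 45.2% ± 2.83 of this sum in control and 49.3% ± 3.09 in Klf4 libraries (SD, n = 4). The share of Pygl was 20.9% ± 4.99 and 25.7% ± 4.65, and that of Pygm 34% ± 5.41 and 25% ± 2.72 (SD, n = 4). By this length Pygb had the largest share in each of the 8 libraries. With the longest transcript as length, an alternative chosen after the data were seen, the shares in control and Klf4 libraries were 39.9% ± 2.93 and 41.9% ± 3.81 for Pygb, 32.6% ± 6.61 and 38.7% ± 5.78 for Pygl, and 27.4% ± 5.33 and 19.4% ± 2.61 for Pygm (SD, n = 4). Pygb then came first in 5 libraries and Pygl in 3, and Pygl was second in both group means, so the order of the 3 forms depends on the length used. The longest annotated transcript of Pygl has 1 exon, whereas those of Pygb and Pygm have 20 each. The 4 targeting subunits summed to 15.5 ± 1.15 and 13.9 ± 0.544 CPM per kb (SD, n = 4). Ppp1r3e took 55.4% ± 1.19 of that sum in control and 56.6% ± 2.43 in Klf4 libraries, and Ppp1r3c 8.06% ± 1.84 and 5.8% ± 0.63 (SD, n = 4). Ppp1r3c was thus a minor part of the summed RNA of these 4 subunits in both groups. This was so also with the longest transcript as length (6.97% ± 1.59 and 5% ± 0.531). Targeting subunits outside the set were not part of the sum.

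In the order of levels per exonic length in control libraries, Gys1 came first at 17.5 ± 3.4 CPM per kb (SD, n = 4). Gbe1 at 8.8 ± 0.102 and Ppp1r3e at 8.58 ± 0.706 CPM per kb followed and overlapped each other. Ppp1r3d at 5.63 ± 0.701 and Pygb at 2.09 ± 0.114 CPM per kb were each apart from their neighbours in the order. Pygm at 1.58 ± 0.294, Ppp1r3c at 1.23 ± 0.202 and Pygl at 0.963 ± 0.212 CPM per kb overlapped from one to the next. Ppp1r3b was last at 0.0367 ± 0.0195 CPM per kb. With the length of the longest transcript in place of all exons, Pygl at 2.11 CPM per kb came before Pygm at 1.77 and Ppp1r3c at 1.23, so the order of these 3 is not settled.

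**Figure D3:**
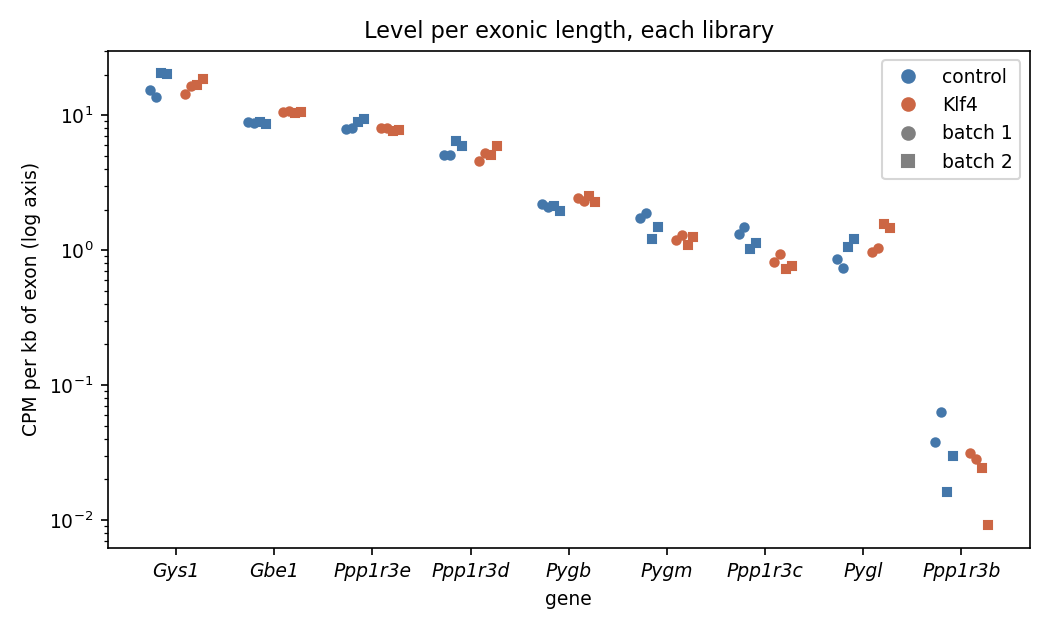
Level per exonic length (CPM per kb, log axis) of the 9 genes in each library, ordered by the control mean. Gys1 is highest at 13.7 to 20.4 CPM per kb in control libraries, and Ppp1r3b lies below all other genes in every library.

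The difference between batches was not used to choose the genes, and was tested with the batch term of the same model. Of the 8 tested genes, 3 passed (edgeR, adjusted over all genes), all higher in batch 2, where 25.1% of all genes passed, 13.4% higher and 11.6% lower in batch 2. Pygl rose from 6.2 CPM in batch 1 to 9.09 CPM in batch 2 (log2 difference 0.55, SE 0.08, edgeR adjusted p 2.75e-05). Gys1 rose from 72 to 91.3 CPM (log2 difference 0.34, SE 0.05, edgeR adjusted p 5.61e-05). Ppp1r3d rose from 16.3 to 19.1 CPM (log2 difference 0.23, SE 0.06, edgeR adjusted p 0.00903), a call that was lost without control replicate 3 (0.19, edgeR adjusted p 0.0613). For each of these 3 genes the batch difference exceeded that between plasmids in size, which was not tested. Ppp1r3c was at -0.32 (SE 0.12, edgeR adjusted p 0.0683) and Pygm at -0.26 (SE 0.11, edgeR adjusted p 0.0835), neither past the threshold. Without Klf4 replicate 4 the batch term of Pygm passed, at -0.33 (edgeR adjusted p 0.0428). Gbe1 was at -0.01 (SE 0.03, edgeR adjusted p 0.812).

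An interaction term tested whether the plasmid difference itself changed from batch 1 to batch 2, and 0.766% of all genes passed it. Of the 8 genes 0 passed after adjustment and 2 had an unadjusted p under 0.05 in edgeR, and DESeq2 also called 0. These were Gys1, with a log2 difference of -0.27 between the batches (SE 0.08, unadjusted p 0.00199, edgeR adjusted p 0.12), and Ppp1r3e, with -0.26 (SE 0.10, unadjusted p 0.0125, edgeR adjusted p 0.285). For Gys1 the term passed with no filter on low counts (adjusted p 0.00808). It also passed without control replicate 1 (0.00382), without Klf4 replicate 1 (0.0412) and without Klf4 replicate 4 (0.0394).

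Genes of the same pathway outside the set were taken from a list of 41, of which 37 passed the filter. At an adjusted p under 0.05, 5 of the 37 were higher and 11 lower in Klf4 libraries, where 21.1% of all tested genes were higher and 15.5% lower. The median log2 fold change of the 37 was -0.06, against -0.01 over all tested genes. Without a batch term the calls for Pgm2l1, Gaa, Gabarapl1, Ppp1r1a, Ppp1r2, Prkaa1 and G6pc3 were lost, and with factors taken from abundant genes those for Gaa, Phka2, Prkaa1 and G6pc3. Apart from the hexokinase gene Hk2, every called gene moved by 0.42 or less on the log2 scale. Hk2, the hexokinase of muscle and many dividing cells, which β cells normally keep low, had 8, 6, 2 and 8 counts in control and 190, 183, 276 and 289 counts in Klf4 libraries. Every Klf4 library was far above every control library, and the mean rose from 0.125 ± 0.06 to 4.61 ± 0.886 CPM (SD, n = 4). The log2 fold change of Hk2 was 5.18 (SE 0.23, edgeR adjusted p 1.7e-14). By comparison, Hk1 at 0.01 (adjusted p 0.853) did not pass the edgeR test.

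In substrate supply and initiation, 3 of 7 tested genes were higher and 0 lower, beside 21.1% and 15.5% of all tested genes. Ugp2, which makes the UDP-glucose used by glycogen synthase, rose from 35.1 ± 2.48 to 42.6 ± 4.05 CPM (SD, n = 4), with a log2 fold change of 0.28 (edgeR adjusted p 1.32e-05). Pgm2, of the phosphoglucomutase family, rose by 0.28 (edgeR adjusted p 3.69e-05). Pgm2l1, which makes glucose 1,6-bisphosphate, rose by 0.17 (edgeR adjusted p 0.00466), a call lost without control replicate 3 (0.12). Pgm1, the main phosphoglucomutase, was at -0.05, and the glycogenin gene Gyg, whose product primes new chains, at 0.01. The liver synthase gene Gys2 was low in both groups, at 0.981 ± 0.157 and 1.27 ± 0.217 CPM (SD, n = 4), and did not pass.

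In lysosomal breakdown, the glucosidase gene Gaa fell by 0.09 (edgeR adjusted p 0.0074) and Gabarapl1, of the autophagy machinery, by 0.13 (edgeR adjusted p 0.00254). Of all tested genes, 15.5% were called lower. Of 5 phosphorylase kinase genes, 1 passed, the α-subunit gene Phka2 at -0.15 (edgeR adjusted p 0.0108), where 36.6% of all tested genes passed. The 5 genes lay between -0.15 and -0.05.

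Among protein phosphatase 1 and its other subunits, 1 of 6 tested genes was higher and 2 were lower, where 21.1% and 15.5% of all tested genes were. The catalytic subunit gene Ppp1cb fell by 0.13 (edgeR adjusted p 0.00281), with Ppp1ca at 0 and Ppp1cc at -0.06, neither past the threshold. The inhibitor gene Ppp1r1a fell by 0.12 (edgeR adjusted p 0.00392). The inhibitor gene Ppp1r2 rose by 0.12 (edgeR adjusted p 0.0129), and this call was lost in 6 of the 8 fits that left out a library, with values of 0.09 to 0.11. It held without control replicate 1 and without Klf4 replicate 2, at 0.14 in each. The muscle targeting subunit gene Ppp1r3a and Ppp1r3g failed the filter, with 7 and 2 counts summed over control libraries and 9 and 5 over Klf4 libraries.

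Of 6 tested genes for laforin, malin and kinases of glycogen synthase, 3 were lower and 0 higher, against 15.5% lower and 21.1% higher over all tested genes. Nhlrc1 encodes malin, a ubiquitin ligase that acts with laforin and is known to target the Ppp1r3c protein for degradation. Its level was 3.61, 3.74, 3.81 and 4.79 CPM in control and 3.35, 2.92, 2.72 and 2.92 CPM in Klf4 libraries, without overlap. The log2 fold change of Nhlrc1 was -0.42 (SE 0.12, edgeR adjusted p 0.00873), and -0.32 (adjusted p 0.0498) without control replicate 4. Gsk3b, a kinase that inhibits glycogen synthase, fell by 0.12 (edgeR adjusted p 0.00244), and the AMP-activated kinase gene Prkaa1 by 0.10 (edgeR adjusted p 0.0231). The laforin gene Epm2a was at -0.06 and did not pass. Among 9 tested genes for glucose 6-phosphate entry and exit, 1 was higher and 2 were lower, where 21.1% and 15.5% of all tested genes were. The higher gene was Hk2. G6pc2, the glucose 6-phosphatase of islets, fell by 0.13 (edgeR adjusted p 0.00151) and G6pc3 by 0.11 (edgeR adjusted p 0.0217). Calls for Prkaa1 (-0.08, without Klf4 replicate 4) and for G6pc3 (-0.10, without control replicate 4 or Klf4 replicate 3) did not hold. Prkaa2 and G6pc also failed the filter.

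**Figure D4:**
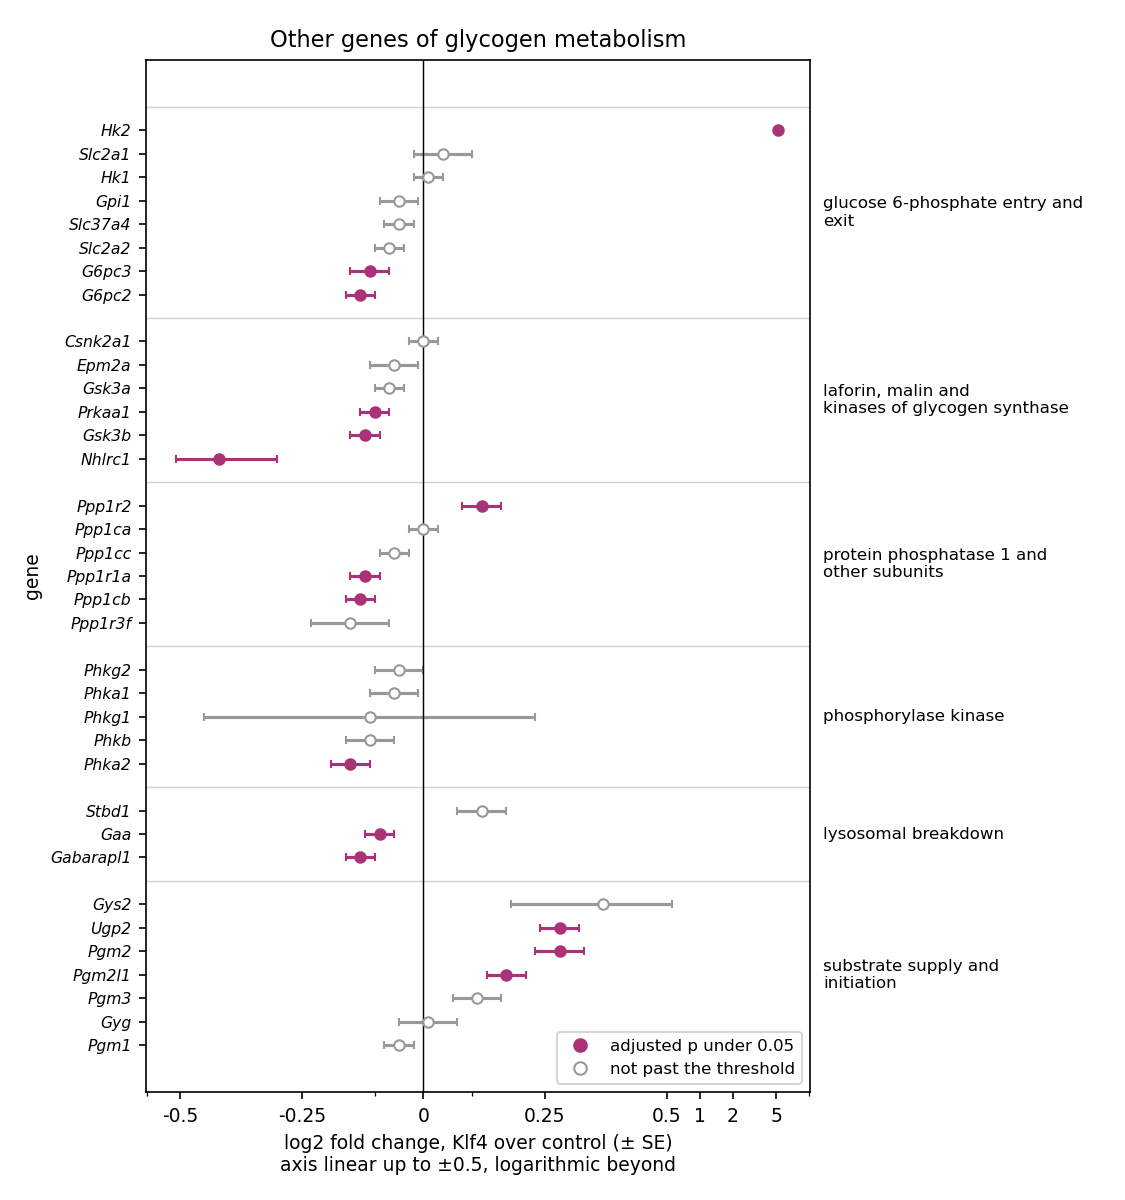
Log2 fold change of Klf4 over control libraries (± SE) for 35 tested genes of glycogen metabolism outside the set, grouped by role, on an axis that is logarithmic beyond ±0.5. Filled points passed an adjusted p of 0.05, with Hk2 far to the right at 5.18 and Nhlrc1 the lowest at -0.42.

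The 5 genes whose pattern over the 8 libraries was most like that of Ppp1r3c were found among 12869 other genes that reached the same average level of 1 in log2 CPM. Likeness was the root mean square difference of log2 CPM after each gene was centred on its own mean. They were Rad52 (0.093), the long non-coding RNA genes 5430416N02Rik (0.106) and Gm16973 (0.112), the unclassified Gm43359 (0.112), and the small nucleolar RNA host gene Snhg12 (0.111). All were lower in Klf4 libraries, with log2 fold changes of -0.67 for Rad52, -0.54 for 5430416N02Rik, -0.54 for Gm43359, -0.59 for Gm16973 and -0.47 for Snhg12. Estimates for all were also lower in batch 2 than in batch 1, by 0.19 to 0.47 on the log2 scale. That for Ppp1r3c was lower by 0.32. The batch term of Rad52 (edgeR adjusted p 0.113) did not pass the threshold, nor did that of Ppp1r3c. A gene with the same plasmid and batch differences is near by construction, so the likeness is a description.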

How the data were processed

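RNA of 8 Min6 libraries (4 per group) was measured as whole-number read counts per gene, which the authors deposited without normalisation or pooling. The submitters' processing notes name FastQC, STAR, featureCounts, edgeR and build mm10, the file name cutadapt trimming, and the strand setting was not given in the sources used here. All 55536 pairs of identifier and symbol matched GENCODE M21 (GRCm38), which gave coordinates and exonic lengths. Of the called pathway genes, exons of Ugp2, Gabarapl1 and Phka2 overlap a gene on the other strand. Those of Ppp1cb overlap a gene on the same strand. As for Gys1, reads of these overlaps cannot be assigned.

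Counts were analysed in edgeR 4.0.16 under R 4.3.3. filterByExpr (minimum count 10) left 18266 genes. TMM factors were 0.996 to 1.01. A model with batch and plasmid terms, as the series' own text names edgeR with batch correction, was fitted with glmQLFit and tested with the quasi-likelihood test, with Benjamini-Hochberg adjustment over all tested genes. SE is the log2 fold change divided by the root of F. CPM uses TMM-scaled sums over the tested genes. The procedure was tested on simulated data with fewer changed genes than were called here. In an initial draw the share of false calls exceeded the bound set. The criterion was then changed to an average over several draws, that draw included. Its bound was also reset after that result, and the procedure met the reset bound.

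Alternatives were DESeq2 size factors, DESeq2 1.42.0, factors from genes of average log2 CPM of at least 6, no batch term, the replicate number as a block, no filter, at least 1 CPM in at least 4 libraries, the longest transcript as length, and the omission of each library. Deviations from the group means of same-numbered libraries correlated at 0.43 to 0.59 over 10485 genes. Once batch means were removed, the correlation was -0.05 in batch 1 and 0.06 in batch 2. With 2 libraries per group and batch, both replicates of a batch then give the same value by construction. The numbers in the titles thus paired libraries through their batch.

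The genes named were Klf4, the 9 genes, called pathway genes, the 5 nearest Ppp1r3c in pattern and its neighbours in the order of lowered genes. Results of 2 single pathway genes are not reported here, and counts over the list include them. The genes and lists were chosen with earlier results of these data known. Of the marker lists, those of acinar (1.73 to 4.26 CPM in control, 1.64 to 3.01 in Klf4 libraries), macrophage (38.4 to 44.7 and 36.1 to 43.5), endothelial (19.4 to 23.8 and 22.1 to 24.1) and hepatocyte genes (534 to 633 and 551 to 613) overlapped between groups.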

Additional observations from a re-analysis of the deposited data

Results flagged for a closer look

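A check for a library far from the other 3 of its group was made on 54 groups of values and singled out 3 libraries, where chance gives about 2.7. Klf4 replicate 1 had 89.4 CPM of Ppp1r2, above the 83.4 to 84.3 CPM of the other Klf4 libraries. Control replicate 4 had 4.79 CPM of Nhlrc1, where the remaining controls had 3.61 to 3.81 CPM. The counts of Klf4 replicate 2 summed to 45417853, whereas those of the other Klf4 libraries summed to 51891997 to 52731176. No value of the 9 glycogen genes stood apart in this way. The plasmid difference of Klf4 itself was larger in batch 2 than in batch 1, by 0.37 on the log2 scale (edgeR interaction test, adjusted p 0.0057).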

How the results depend on the processing

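The log2 fold changes of 25 genes (Klf4, the 8 tested glycogen genes and 16 pathway genes) were recomputed under 15 alternatives, which gave 375 values. None changed sign, 340 kept their side of the threshold, 30 lost the call and 5 gained one. Ppp1r3c ranged from -0.66 to -0.56 and Gbe1 from 0.25 to 0.3, called in every alternative. The same contrast proposed the set and the alternatives reuse the same libraries, so these ranges are a description. Calls were gained by Ppp1r3d without Klf4 replicate 2 (-0.17), by Ppp1r3e without control replicate 1 (-0.17) or 2 (-0.16), and by Gys1 without control or Klf4 replicate 2 (-0.14 in both). Without a batch term, 4116 genes, 2 of the glycogen genes and 9 pathway genes were called, against 6684, 5 and 16. With the replicate number as a block these were 6284, 5 and 16, and no call among the glycogen and pathway genes changed. With 1 library left out, 5889 to 7074 genes, 4 to 7 glycogen genes and 14 to 22 pathway genes were called by the plasmid term, and 3611 to 4111 genes and 2 to 4 glycogen genes by the batch term. The interaction term called 140 genes, 265 with no filter on low counts and 48 (without Klf4 replicate 2) to 261 (without control replicate 1) with 1 library left out. The cause was not tested. Higher genes made up 57.7% of plasmid calls, 72.8% with factors from abundant genes and 71.8% without a batch term. Of the 9 levels per length, 6 kept their place with the longest transcript. The 8 libraries, which are of 1 line, limit the precision, and Ppp1r3b was too low for a test with the filter in place.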
